A study of Saccharomyces cerevisiae with 6 samples.

Results

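The target of rapamycin complex 1 (TORC1) and the regulators that pass amino acid signals to it were followed through 10 genes of Saccharomyces cerevisiae, chosen by name from 5449 genes measured. They comprise the TORC1 subunit genes TOR1, TOR2, KOG1, TCO89 and LST8, the EGO complex genes MEH1, GTR1 and GTR2, and NPR2 and NPR3 of the SEACIT complex. Each of the 10 symbols was found in the platform annotation under its own name, with 1 probe set each. All 10 probe sets lay above background on all 6 arrays, a low bar that 97.6 to 98.0% of all tested probe sets cleared on each array. The messenger RNA of 3 wild type samples was compared with that of 3 samples carrying a deletion of VPS4 (Delta VPS4 in the labels), all in mid-log growth in synthetic YNB medium with the amino acids they needed, at 26 °C. The sources used here give neither the strain background nor the number of independent deletion clones. Replicates are numbered 3, 4 and 6 in wild type and 4, 5 and 6 in the deletion. Since the labels do not state whether each replicate was its own culture, the p-values cover the spread among these 6 samples alone, and that spread may be technical.

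TORC1 is a protein kinase complex on the yeast vacuole that promotes growth when nitrogen and amino acids are plentiful and restrains autophagy and stress responses. Amino acids act on it largely through the EGO complex, whose small GTPases Gtr1 and Gtr2, the counterparts of the mammalian Rag GTPases, are held on the vacuole membrane. SEACIT stimulates GTP hydrolysis by Gtr1 and so restrains TORC1, and SEACAT opposes SEACIT. Vps4 is the ATPase that disassembles ESCRT-III on endosomes, and the sorting route it serves delivers membrane proteins to the vacuole, where their amino acids are released. The series title links that route to amino acid recycling, and the comparison here asks whether the genes encoding TORC1 and its amino acid inputs were expressed at another level without VPS4.

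VPS4 (YPR173C) was at 11.46, 11.48 and 11.39 (log2 expression values) in wild type replicates 3, 4 and 6 and between 1.29 and 1.75 in the deletion, below a background of 1.82 to 1.92, a difference of at least 760-fold (limma, Benjamini-Hochberg adjusted p = 1.30e-07). Over all tested probe sets the array medians ran from 9.12 to 9.15. Wild type replicate 3 stood apart from the other arrays: across genes, which are not independent replicates, Pearson's r was 0.9926 between it and the other wild type arrays, against 0.9991 between replicates 4 and 6. Calls that rest on that array are given with and without it. The 4 alpha mating type genes averaged 12.55 to 12.75 in wild type and 12.29 to 12.38 in the deletion, and the 7 a mating type genes averaged 4.55 to 4.81 and 3.95 to 4.19. All 11 lay above background on every array, as did 97.6 to 98.0% of all tested probe sets on each array. In the deletion 2 of each list were lower (limma, adjusted p under 0.05).

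None of the 10 genes passed the test between genotypes. With all 6 arrays, 0 rose and 0 fell (limma, Benjamini-Hochberg over 5498 probe sets, threshold 0.05), where 4.27% of all tested probe sets passed, 2.82% higher and 1.46% lower, and 0 of the 10 had an unadjusted p under 0.05, against 17.4% of probe sets. The wild type and deletion arrays overlapped for all 10 genes; the groups did not overlap for 24.8% of tested probe sets. The differences ran from −0.11 for NPR2 to 0.14 for TOR1 on the log2 scale, 1 above zero and 9 below. Over all tested probe sets 2686 lay above zero and 2812 below. Without wild type replicate 3, TOR1, KOG1, TCO89, GTR2 and NPR3 lay above zero and TOR2, LST8, MEH1, GTR1 and NPR2 below. With all 6 arrays the median difference of the 10 genes was −0.018, against −0.0019 over all probe sets, and the median size was 0.024 against 0.061. The farthest 95% confidence limit among the 10 genes was that of TOR1, 0.30 log2 from zero. All 10 intervals lie within that bound by construction, so the 69.8% of all tested probe sets within it is no contrast to them.

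**Figure D1:**
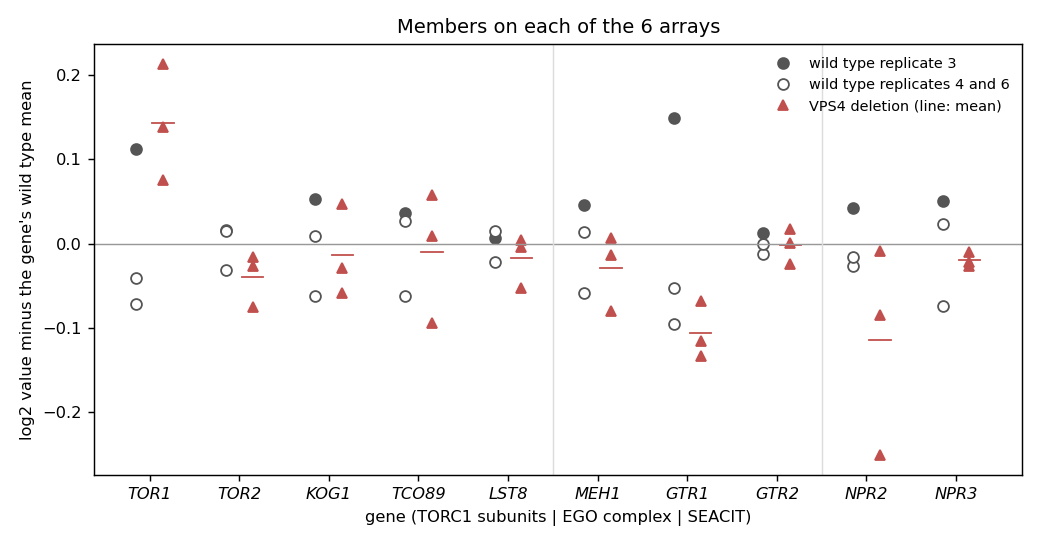
The log2 value of each gene on each array is plotted relative to that gene's wild type mean (circles, wild type, filled for replicate 3; triangles, VPS4 deletion, with a line at their mean). Groups overlap for all 10 genes, TOR1 is the 1 gene whose deletion mean lies above the wild type mean, and wild type replicate 3 is the highest wild type array for 9 of the 10.

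TOR1 (YJR066W) encodes the kinase that gives the complex its name. Its log2 values were 8.89, 8.74 and 8.71 in wild type replicates 3, 4 and 6 and 8.99, 8.92 and 8.86 in deletion replicates 4, 5 and 6. The deletion arrays lay above wild type replicates 4 and 6, while wild type replicate 3 lay between deletion replicates 5 and 6. The means were 8.78 ± 0.10 and 8.92 ± 0.07 (SD, n = 3), a difference of 0.14 ± 0.07 (SE; limma adjusted p = 0.330), or 1.10-fold with an interval of 0.99 to 1.23.

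Wild type replicate 3 decided this outcome for TOR1. That array stood 0.17 log2 above the mean of the other wild type arrays in TOR1, and without it TOR1 rose by 0.20 ± 0.05 (SE; limma adjusted p = 0.0209) with groups that did not overlap. In the same fit 22.0% of all tested probe sets passed, 11.9% higher and 10.1% lower, so 1 of 10 members was below the background share. The 5 general stress genes of the marker list (HSP12, CTT1, DDR2, HSP26 and SSA4), all above background on every array, averaged 8.28 in wild type replicate 3, up to 8.97 in the other wild type arrays and 9.64 to 9.73 in the deletion, and their part in the TOR1 difference was not tested. These averages join unlike genes: DDR2 was at 8.34 in wild type replicate 3 against 10.71 and 10.59 in the other wild type arrays, HSP26 was highest in replicate 3 among the wild type arrays, and 2 of the 5, HSP26 and SSA4, rose between genotypes with all 6 arrays (limma, adjusted p under 0.05).

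TOR2 (YKL203C) encodes the related kinase that can take Tor1's place in TORC1 and is the kinase of TORC2. Its values were 9.15, 9.10 and 9.15 in wild type replicates 3, 4 and 6 and 9.11, 9.06 and 9.12 in deletion replicates 4, 5 and 6. The groups overlapped through wild type replicate 4, and the difference was −0.039 ± 0.040 (SE; limma adjusted p = 0.693). Taken within each array, TOR1 minus TOR2 was −0.26, −0.36 and −0.44 in wild type replicates 3, 4 and 6 and −0.11, −0.14 and −0.26 in deletion replicates 4, 5 and 6, so that deletion replicate 6 and wild type replicate 3 nearly coincided. This contrast, chosen after the values were seen, shifted by 0.18 between genotypes and did not pass an exact two-sided permutation test over the arrays (p = 0.2, or 0.4 adjusted over 3 such pairs; the smallest p that 3 against 3 can give is 0.1).

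KOG1 (YHR186C), the yeast counterpart of Raptor, presents substrates to the kinase. It stood at 8.85, 8.80 and 8.73 in wild type replicates 3, 4 and 6 and at 8.74, 8.77 and 8.84 in deletion replicates 4, 5 and 6. These ranges almost coincided, with a difference of −0.014 ± 0.052 (SE; limma adjusted p = 0.930).

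TCO89 (YPL180W) encodes a subunit found in TORC1 and not in TORC2. Its values were 8.21, 8.11 and 8.20 in wild type replicates 3, 4 and 6 and 8.18, 8.23 and 8.08 in deletion replicates 4, 5 and 6. The deletion arrays spanned the wild type range on both sides, and the difference was −0.0095 ± 0.060 (SE; limma adjusted p = 0.960).

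LST8 (YNL006W) encodes the WD-repeat subunit that both TOR complexes share. Its values were 9.43, 9.40 and 9.44 in wild type replicates 3, 4 and 6 and 9.37, 9.42 and 9.42 in deletion replicates 4, 5 and 6. All 6 arrays lay within 0.067 log2 of each other. The difference was −0.017 ± 0.037 (SE; limma adjusted p = 0.869), with a fold interval of 0.93 to 1.05.

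In the EGO complex, MEH1 (YKR007W), which encodes the lipid-modified anchor of the complex in the vacuole membrane, stood at 8.72, 8.61 and 8.68 in wild type replicates 3, 4 and 6 and at 8.66, 8.59 and 8.68 in deletion replicates 4, 5 and 6. The difference was −0.029 ± 0.050 (SE; limma adjusted p = 0.834), and the groups overlapped over most of their range.

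GTR1 (YML121W), the GTPase that activates TORC1 in its GTP-bound form, had the widest wild type spread of the 10 genes. Its values were 9.69, 9.49 and 9.45 in wild type replicates 3, 4 and 6 and 9.41, 9.43 and 9.48 in deletion replicates 4, 5 and 6. One wild type array, replicate 3, stood 0.22 log2 above the mean of the other wild type arrays, which lay close to the deletion arrays. The means were 9.54 ± 0.13 and 9.44 ± 0.03 (SD, n = 3), a difference of −0.11 ± 0.07 (SE; limma adjusted p = 0.507), and without replicate 3 the difference was −0.031 ± 0.038 (SE; limma adjusted p = 0.619).

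GTR2 (YGR163W), the partner GTPase of Gtr1, varied least of the 10 genes. It stood at 9.72, 9.69 and 9.70 in wild type replicates 3, 4 and 6 and at 9.72, 9.68 and 9.70 in deletion replicates 4, 5 and 6, a span of 0.042 log2 over all 6 arrays. The difference was −0.0020 ± 0.033 (SE; limma adjusted p = 0.988), with a fold interval of 0.95 to 1.05. GTR1 minus GTR2 within each array was −0.024, −0.20 and −0.26 in wild type replicates 3, 4 and 6. In deletion replicates 4, 5 and 6 it was −0.31, −0.25 and −0.23. It shifted by −0.10 between genotypes, with wild type replicate 3 far from the other wild type arrays (exact two-sided permutation p = 0.3, or 0.4 adjusted over the 3 pairs). This test cannot give a p under 0.1 and so decides nothing here.

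In SEACIT, NPR2 (YEL062W) encodes a subunit of the complex that restrains Gtr1. Its values were 8.20, 8.13 and 8.14 in wild type replicates 3, 4 and 6 and 8.15, 8.07 and 7.91 in deletion replicates 4, 5 and 6. Deletion replicate 6 was the lowest of all arrays, and deletion replicate 4 lay within the wild type range. The means were 8.16 ± 0.04 and 8.04 ± 0.12 (SD, n = 3), a difference of −0.11 ± 0.07 (SE; limma adjusted p = 0.489), with a fold interval of 0.82 to 1.04.

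NPR3 (YHL023C), which encodes the partner of Npr2, stood at 8.79, 8.66 and 8.76 in wild type replicates 3, 4 and 6 and at 8.72, 8.71 and 8.73 in deletion replicates 4, 5 and 6. The deletion arrays fell inside the wild type range, and the difference was −0.019 ± 0.048 (SE; limma adjusted p = 0.893). NPR2 minus NPR3 within each array shifted by −0.095 between genotypes (exact two-sided permutation p = 0.4, also 0.4 adjusted over the 3 pairs). Here too the test cannot give a p under 0.1 and decides nothing.

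**Figure D2:**
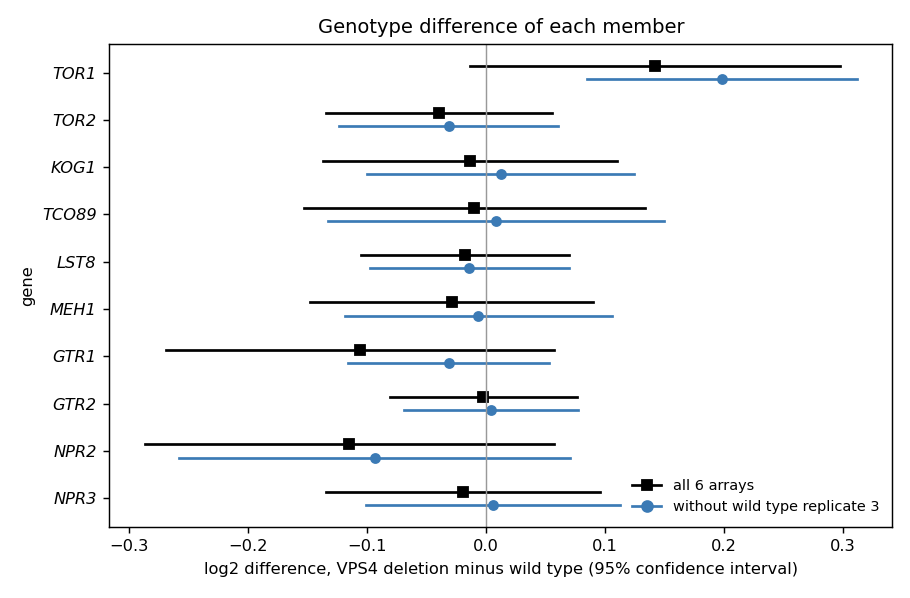
The log2 difference of each gene, VPS4 deletion minus wild type, is plotted with its 95% confidence interval for all 6 arrays (black squares) and without wild type replicate 3 (blue circles). All 10 intervals from 6 arrays include zero, and TOR1 is the 1 gene whose interval lies above zero without that replicate, from 0.085 to 0.31.

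Among the 10 genes, wild type replicate 3 was the highest wild type array for 9, all but LST8, whereas it was the highest for 43.1% of all tested probe sets. Its median signed departure from the other wild type arrays was 0.066 log2 over the 10 genes and 0.0033 over all probe sets, where departures up and down cancel. The median size of the departure, without regard to sign, was 0.066 over the 10 genes and larger, 0.108, over all probe sets. Without wild type replicate 3, the differences of TOR1 and NPR2 were 0.20 and −0.093, those of the other 8 genes lay between −0.031 and 0.012, and the median over the 10 was −0.00096. The median SD between wild type arrays was 0.054 for the 10 genes and 0.077 for all tested probe sets, and between deletion arrays 0.040 and 0.045.

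TOR1 had the smallest p of the members and NPR2 the widest range over the 6 arrays, 0.29 log2. The genes whose centred log2 values lay closest to those of TOR1 on the 6 arrays, among 3924 genes that passed the rule on range, were DIA4, MMM1 and SLA2, with root mean square differences of 0.021, 0.022 and 0.029 log2. For NPR2 they were QNS1, MET13 and PAU21, at 0.021, 0.027 and 0.032 log2 among 3848 genes. PAU21 belongs to a family of nearly identical genes, so its probe set may read several. None of these 6 genes passed between genotypes (limma adjusted p from 0.180 to 0.544). That outcome was largely set by choosing them for closeness, on the same arrays, to members that did not pass.

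The wider pathway was read through 74 further genes in 7 lists. With all 6 arrays 2 rose, 0 fell and 72 did not pass, or 2.70% against the background of 4.27%, and 14 of the 74 had groups that did not overlap, 18.9% against 24.8%. The median difference over the 74 was −0.00085 and the median size 0.069, against −0.0019 and 0.061 over all tested probe sets. The genes that rose were YPK1 and IGO1.

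YPK1 (YKL126W), the protein kinase that TORC2 activates and that controls sphingolipid synthesis and other plasma membrane processes, stood at 9.46, 9.31 and 9.33 in wild type replicates 3, 4 and 6. In deletion replicates 4, 5 and 6 it stood at 9.70, 9.76 and 9.65, above all wild type arrays. It rose by 0.33 ± 0.05 (SE), or 1.26-fold with an interval of 1.15 to 1.38 (limma adjusted p = 0.0235). The other 10 genes of the TORC2 list did not pass, among them the Ypk1 paralog gene YPK2 with a difference of −0.061 ± 0.12 (SE) and the TORC2 subunit gene AVO1 with −0.087 ± 0.085 (SE), both named after their values were seen.

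IGO1 (YNL157W) encodes a small inhibitor of a PP2A phosphatase that the kinase Rim15 activates when TORC1 activity falls. It stood at 10.42, 10.46 and 10.46 in wild type replicates 3, 4 and 6 and at 10.63, 10.64 and 10.66 in deletion replicates 4, 5 and 6, with a gap between the groups wider than the spread in either. It rose by 0.20 ± 0.03 (SE), or 1.15-fold with an interval of 1.09 to 1.20 (limma adjusted p = 0.0156). RIM15 itself differed by −0.17 ± 0.11 (SE) and the paralog gene IGO2 by −0.051 ± 0.052 (SE), and neither passed; both were named after their values were seen.

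The calls of YPK1 and IGO1 held without wild type replicate 3 (limma adjusted p = 0.00014 and 0.00099) and were lost in each of the 5 fits that left out another array, wild type replicate 4 or 6 or deletion replicate 4, 5 or 6. In those fits the limma adjusted p ran from 0.0805 to 0.121 for YPK1 and from 0.0546 to 0.0942 for IGO1, while the differences ran from 0.30 to 0.36 and from 0.19 to 0.20. The count over all probe sets also fell there, from 235 to between 22 and 118.

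In the other lists 0 genes passed with all 6 arrays (limma), and those with the smallest p are given here. IML1 (YJR138W), the third SEACIT gene, stood at 8.04, 8.06 and 8.17 in wild type and 7.90, 8.02 and 7.94 in the deletion. Its groups did not overlap, but the gap was narrow and the difference of −0.14 ± 0.06 (SE) did not pass (limma adjusted p = 0.305). The 2 other genes of that list are EGO complex genes: SLM4 differed by −0.12 ± 0.09 (SE), with wild type replicate 3 standing 0.32 log2 above the mean of the other wild type arrays, and EGO2 by −0.024 ± 0.054 (SE). Among the 5 SEACAT genes, MTC5, also called SEA3, differed by −0.093 ± 0.059 (SE; limma adjusted p = 0.493), and the median difference of the list was 0.057.

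Among 13 other inputs to the pathway, CDC60 (YPL160W), the cytosolic leucyl-tRNA synthetase gene whose product also signals leucine to Gtr1, stood at 11.62, 11.49 and 11.50 in wild type replicates 3, 4 and 6 and at 11.42, 11.43 and 11.34 in deletion replicates 4, 5 and 6. All deletion arrays were below all wild type arrays, and the difference was −0.14 ± 0.04 (SE; limma adjusted p = 0.157). In the fit that left out wild type replicate 3 it fell by 0.099 (limma adjusted p = 0.0386). VAM6, a vacuolar tethering factor reported to act on Gtr1, and PIB2, a vacuolar protein of glutamine signalling, differed by −0.014 ± 0.069 and 0.035 ± 0.052 (SE), named after their values were seen.

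Downstream of TORC1, the list of Tap42 and its phosphatases held 17 genes. RTS1 (YOR014W), a regulatory subunit gene of PP2A, stood at 9.30, 9.19 and 9.11 in wild type replicates 3, 4 and 6 and at 9.39, 9.42 and 9.34 in deletion replicates 4, 5 and 6. The groups did not overlap, and the difference was 0.18 ± 0.06 (SE; limma adjusted p = 0.165); without wild type replicate 3 it rose by 0.23 ± 0.04 (SE; limma adjusted p = 0.0040).

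Among 13 other effectors, MSN4 (YKL062W), a transcription factor gene of the general stress response, stood at 8.70, 8.53 and 8.37 in wild type replicates 3, 4 and 6 and at 8.21, 8.14 and 7.94 in deletion replicates 4, 5 and 6. All deletion arrays were lower, by a mean of −0.44 ± 0.11 (SE; limma adjusted p = 0.0742), and it fell by 0.35 without wild type replicate 3 (limma adjusted p = 0.0149). Its paralog gene MSN2, named after its value was seen, differed by 0.021 ± 0.044 (SE).

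**Figure D3:**
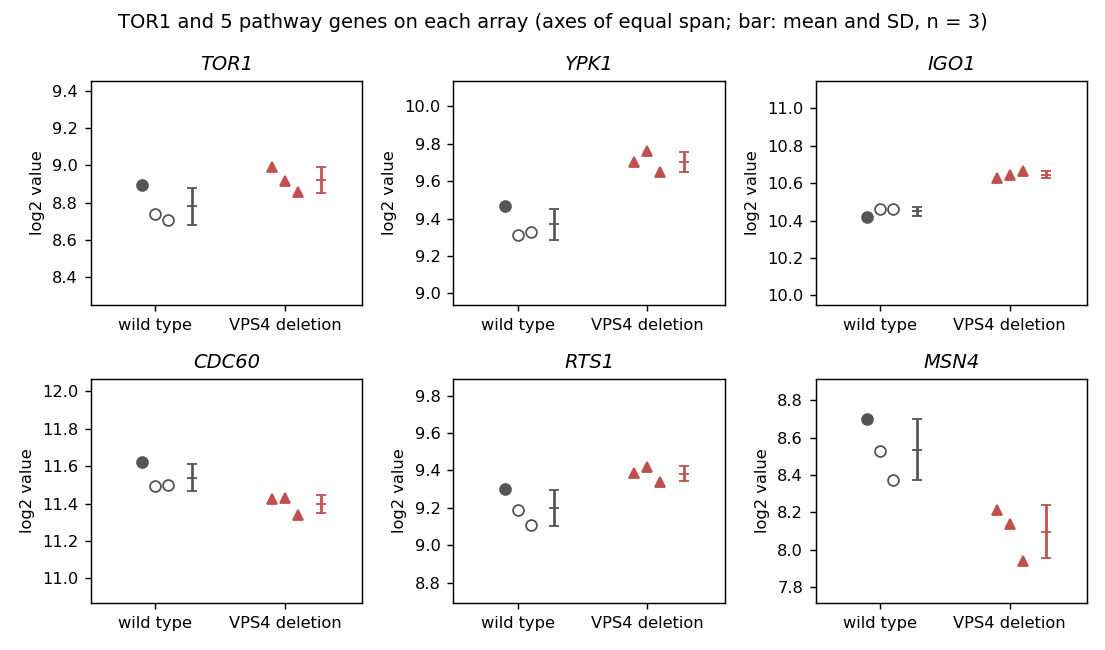
Log2 values on each array are plotted for TOR1 and the 5 pathway genes YPK1, IGO1, CDC60, RTS1 and MSN4 (circles, wild type, filled for replicate 3; triangles, VPS4 deletion; bars, mean and SD, n = 3), on axes of equal span. The groups overlap for TOR1 and not for the other 5, which were chosen for passing the test or for the smallest p in their list. Groups did not overlap for 24.8% of all tested probe sets. Of the genes chosen in the same way and not plotted, MTC5 had groups that overlap and IML1 did not. Among the 5 plotted pathway genes, YPK1 and IGO1 passed with all 6 arrays.

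Without wild type replicate 3, 7 of the 74 pathway genes rose and 7 fell, 18.9% against 22.0% of all probe sets in that fit. The Sch9 branch, the arm of the pathway through the kinase that TORC1 phosphorylates directly, held 5 of the 14 among its 12 genes, 41.7%. It is singled out after the values were seen, as the highest of the 7 lists. The other effectors had 30.8%, Tap42 and its phosphatases 17.6%, and the remaining lists less. With all 6 arrays 1 of the 12, IGO1, had passed, 8.33% against 4.27% of all tested probe sets. The other Sch9 branch genes called without wild type replicate 3 are named here after their values were seen. DOT6, a repressor gene of ribosome biogenesis, rose by 0.43 ± 0.04 (SE; limma adjusted p = 4.44e-05) and had differed by 0.35 ± 0.07 (SE) with all arrays (limma adjusted p = 0.0522). IGO1 rose by 0.18 there. MAF1, the repressor gene of RNA polymerase III, rose by 0.16 there and differed by 0.083 ± 0.074 (SE) with all 6 arrays, where its groups overlapped (limma adjusted p = 0.650). SCH9 itself fell by 0.13, against a difference of −0.10 ± 0.04 (SE) with all 6 arrays (limma adjusted p = 0.286). TOD6, the paralog of DOT6, fell by 0.14. With all 6 arrays TOD6 differed by 0.073 ± 0.17 (SE), the opposite direction: wild type replicate 3 stood at 9.79 and the other wild type arrays at 10.45 and 10.43.

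The other 9 genes called without that replicate, also named after their values were seen where not given above, were YPK1, CDC60, RTS1, PPH21, SAP185, GAT1, URE2, MSN4 and ATG1. GAT1, a GATA factor gene that activates nitrogen catabolite genes, fell by 0.27 (limma adjusted p = 0.0096), against −0.25 ± 0.06 (SE) with all 6 arrays (0.0751). URE2, whose product holds the related factor Gln3 in the cytoplasm, rose by 0.13 (limma adjusted p = 0.0101), against 0.20 ± 0.06 (SE) with all arrays (0.146). ATG1, the autophagy kinase gene, fell by 0.36 (limma adjusted p = 0.0072), against −0.28 ± 0.09 (SE) with all arrays (0.176). PPH21, a catalytic subunit gene of PP2A, rose by 0.10, against 0.069 ± 0.040 (SE) with all arrays (limma adjusted p = 0.450). SAP185, whose product associates with the phosphatase Sit4, fell by 0.22, against −0.042 ± 0.14 (SE) with all arrays (limma adjusted p = 0.922), and it stood at 8.48 in wild type replicate 3 and at 9.02 and 9.03 in the other wild type arrays.

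**Figure D4:**
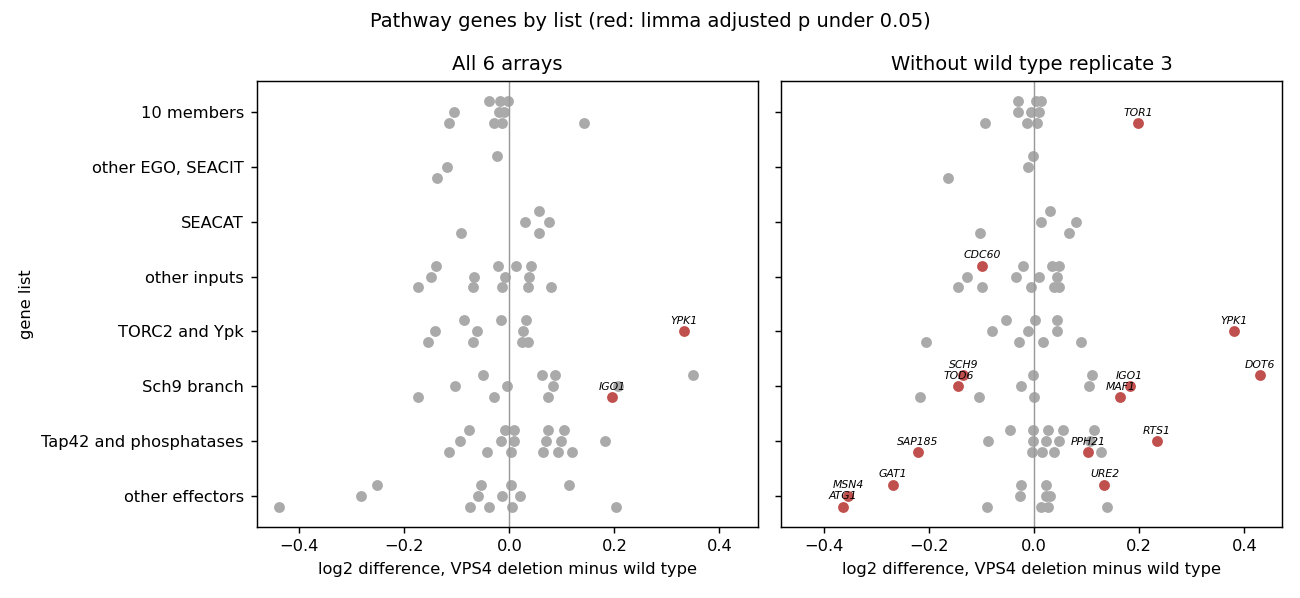
Each point is a gene, placed by its log2 difference, VPS4 deletion minus wild type, in the 10 members and the 7 pathway lists, with all 6 arrays (left) and without wild type replicate 3 (right); red marks a limma adjusted p under 0.05, with the gene named. With all arrays 0 members and 2 pathway genes are red, and without that replicate 1 member and 14 pathway genes are red.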

How the data were processed

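The deposited table holds log2 expression values of 6 Affymetrix arrays, made by the authors with GCRMA, whose version the submitters' processing notes do not state. RNA was labelled with biotin through the Affymetrix 3′ IVT Express kit, per the labels' protocols. In GCRMA values, dim probe sets crowd at the low end, so their differences shrink. No further normalization was applied.

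Of 10928 probe sets, 5498 matched 5449 genes of the R64 gene table through the platform annotation's gene IDs and were tested. The table served for names, and SEA2 and SEA3 were read as RTC1 and MTC5. Background was percentile 95 of 1746 probe sets of another yeast on the array.

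Genotypes were compared with limma 3.58.1 in R 4.3.3 (lmFit, eBayes with a mean-variance trend, two-sided), with Benjamini-Hochberg adjustment over all 5498 probe sets and a threshold of 0.05. The fit was tested on simulated data. Errors are SD over 3 arrays or the moderated SE. The number of arrays limits the precision. Levels of different probe sets were not ranked; differences between partner genes within an array served to compare their shifts between genotypes. The title numbers 4 and 6 occur in both groups, and the fit with that number as a block was an alternative.

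The members and lists were chosen with earlier results of these data known. The named genes were the members, VPS4, each list's genes past the threshold or else its gene with the smallest p, and, for the member with the smallest p and that with the widest range, the 3 genes closest in root mean square difference of centred values among genes whose range was at least 0.5 of its own; others are marked in the text. Alternatives covered the variance model, dim probe sets, normalization, array weights, which probe sets entered the fit, the threshold, and leaving out each array.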

Additional observations from a re-analysis of the deposited data

How the results depend on the processing

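With all 6 arrays 0 members, 2 pathway genes and 235 probe sets passed. With array weights 1 member (TOR1), 12 pathway genes and 1036 probe sets passed. With the replicate block the counts were 1, 11 and 858; there wild type replicate 3 and deletion replicate 5, alone with their numbers, do not enter the difference. At an adjusted p under 0.01 the pathway and probe set counts were 0 and 67, and under 0.1 they were 5 and 422. Leaving out each array in turn gave 0 to 1 members, 0 to 14 pathway genes and 22 to 1212 probe sets, with the highest counts without wild type replicate 3. The other settings kept 0 members, 2 or 3 pathway genes and 200 to 246 probe sets. TOR1 differed by 0.20 with array weights (limma adjusted p = 0.0213) and with the replicate block (limma adjusted p = 0.0466). The value with array weights nearly equals that without wild type replicate 3 (0.20, limma adjusted p = 0.0209), and the block keeps that array out of the difference. These fits are not independent of each other. Between arrays of the same title number, the deviations from the group means correlated at 0.021 for number 4 and −0.059 for number 6, across probe sets. The wild type mean includes replicate 3, which stands apart and shifts these deviations, so this check cannot decide whether the number pairs the arrays.

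Of 140 member values under alternatives, 16 changed sign, all for 5 genes whose difference was at most 0.029 in size. With array weights the values were 0.0036 for KOG1, 0.014 for TCO89, 0.0037 for GTR2 and 0.0039 for NPR3. With the replicate block they were 0.020 for KOG1, 0.019 for MEH1, 0.016 for GTR2 and 0.0093 for NPR3. With each array left out in turn they ran from −0.044 to 0.012 for KOG1, from −0.043 to 0.033 for TCO89, from −0.012 to 0.0093 for GTR2 and from −0.056 to 0.0059 for NPR3. Over all members and alternatives the size of a difference was at most 0.20 log2.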
